A study of Arabidopsis thaliana with 4 samples.

Results

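The methyl-CpG-binding domain (MBD) genes of Arabidopsis thaliana were followed here as a family of 10 loci, MBD1, MBD2 and MBD4 to MBD11, chosen by locus identifier and not by any measured value. They are MBD1 (AT4G22745), MBD2 (AT5G35330), MBD4 (AT3G63030), MBD5 (AT3G46580), MBD6 (AT5G59380), MBD7 (AT5G59800), MBD8 (AT1G22310), MBD9 (AT3G01460), MBD10 (AT1G15340) and MBD11 (AT3G15790). Through the transcript accession of each probe, these 10 genes were reached by 16 probes, among 25347 genes that the arrays covered in this way. Seedlings labelled vim1,2,3, which the series title calls a triple mutant and whose label names VIM1, VIM2 and VIM3, were compared with wild-type seedlings of the strain Col. Whole seedlings of both genotypes were 14 days of age, had been kept in cycles of 16 h light and 8 h dark, and were taken 6 h into the light period. Each of 4 arrays held 1 vim1,2,3-labelled RNA in the Cy5 channel and 1 Col RNA in the Cy3 channel. Which mutant alleles the seedlings carried is not stated in the labels.

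Proteins with an MBD domain recognise DNA, in some cases only where its cytosines are methylated, and bring other proteins to that site. In Arabidopsis, MBD5, MBD6 and MBD7 bind DNA methylated at CG sites. Other members have lost that binding or have roles that are less well defined. The VIM proteins act earlier on the same mark: they bind methylated DNA and are needed by the methyltransferase MET1 to copy CG methylation after replication. The comparison thus asks whether the transcripts of proteins that read CG methylation differ in seedlings labelled as lacking proteins that keep it.

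On arrays 1 to 4, median spot signals were 949, 967.5, 1718 and 1312 in the vim1,2,3-labelled RNAs. In Col they were 670.5, 637, 1270.5 and 966. The share of spots well above background was 69.6%, 68.6%, 81.1% and 81.5% in the vim1,2,3-labelled RNAs. In Col it was 75.8%, 77.8%, 85.2% and 84.3%. Arrays 1 and 2 were thus dimmer than arrays 3 and 4 in both channels, and the number of arrays limits the precision. The VIM2 and VIM3 probes went against the genotype label on part of the arrays. VIM2 had log2 ratios of -1.42, -1.31, 1.82 and 1.11 on arrays 1 to 4, with a mean of -1.36 over arrays 1 and 2 alone, and VIM3 of -1.06, -1.29, 1.61 and 0.25. VIM1, with log2 ratios of -2.22, -2.46, -1.61 and -0.74, kept below 0 throughout and was called lower (-1.76 ± 0.77, SD, n = 4, adjusted p = 0.025), but not with arrays 1 and 2 alone (-2.34, adjusted p = 0.131). Leaving out array 1 also ended the VIM1 call (-1.60, adjusted p = 0.0759), as did leaving out array 3 (-1.81, adjusted p = 0.127). The labels do not say where these probes lie relative to the mutations, so the samples are called vim1,2,3-labelled RNA throughout. Values from arrays 1 and 2 alone are given beside each MBD gene, and beside other genes where calls ended or signs turned. The ratios of arrays 1 and 2 correlated at 0.37 over all genes and at 0.08 over the 10 MBD genes. The other pairs of arrays gave 0.37 to 0.67 and 0.45 to 0.73, so means over arrays 1 and 2 are imprecise. FWA, a homeodomain gene silenced by methylated repeats, rose in the vim1,2,3-labelled RNA by 24.8-fold (4.63 ± 0.16, SD, n = 4, adjusted p = 4.92e-05), with ratios of 4.45 to 4.82 on the arrays, and with arrays 1 and 2 alone at 4.51 (adjusted p = 0.0488).

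None of the 10 MBD genes was called by limma. A call required a 2-fold change or more together with an adjusted p below 0.05. Over all 20464 genes tested, 5.41% were called, 3.25% as higher and 2.16% as lower in the vim1,2,3-labelled RNA. At an unadjusted p under 0.05, 3 of the 10 MBD genes passed, 1 above 0 and 2 below, against 33.5% of all genes. An adjusted p under 0.05 at any fold was reached by 0 of 10 MBD genes and by 11.8% of all genes. The median log2 ratio of vim1,2,3-labelled RNA over Col was 0.03 across the 10 MBD genes and -0.05 across all genes tested. All 10 passed the filter on dim probes, MBD8 only through its Col signal, so no member was left out of these counts.

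The mean log2 ratios of the 10 genes ran from -1.0 for MBD11 to 0.69 for MBD4, and only these 2 lay beyond 0.5 in either direction, as did 32.1% of all genes tested. For 8 of the 10 genes the 95% interval at the brightest probe lay wholly within a 2-fold change in either direction. The exceptions were MBD11 and MBD4. These intervals do not cover other probes or other processing. The MBD9 probes averaged from -0.52 to 0.60, and MBD8 was at -0.73 with the scanner's processed signals, so a 2-fold change is not excluded for these genes. The spread between arrays was that of other genes, with a median SD of 0.36 across the MBD genes and 0.37 across all genes. On each array, 3 or 4 of the MBD genes were above 0 and the rest below, with family medians of -0.16, -0.12, -0.05 and -0.08 on arrays 1 to 4. The medians of all genes were -0.04, -0.05, -0.05 and -0.04 on the same arrays, so the MBD median was lower than that of all genes on arrays 1, 2 and 4 and equal to it on array 3. The median of the gene means lay on the other side, at 0.03 against -0.05, so no direction is given for the family.

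**Figure D1:**
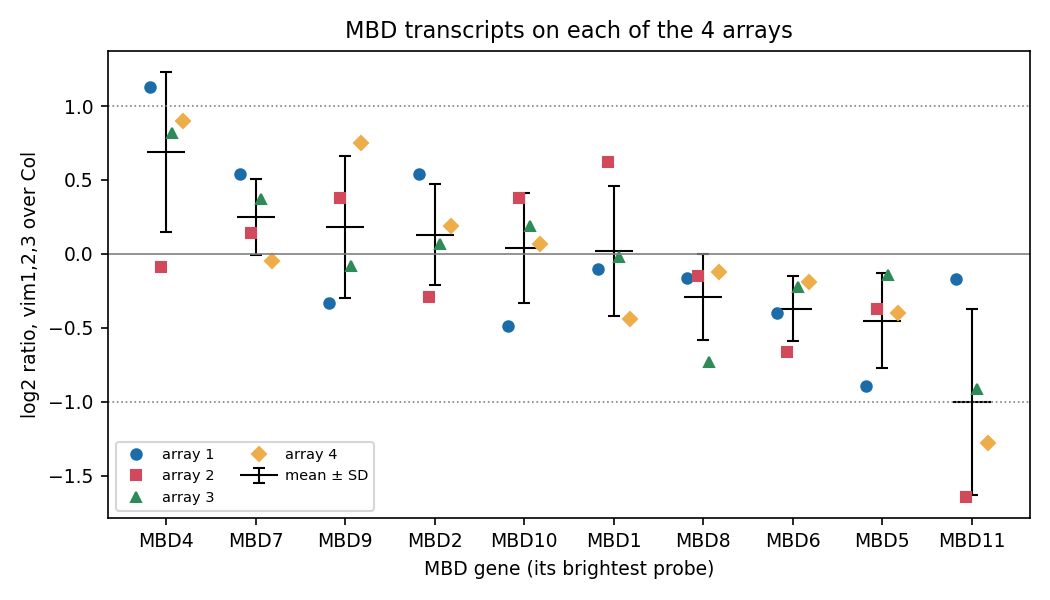
Log2 ratio of vim1,2,3-labelled RNA over Col (vertical axis) for the brightest probe of each of the 10 MBD genes (horizontal axis, ordered by mean). Coloured points are the 4 arrays, black bars the mean ± SD, and dotted lines mark a 2-fold change; MBD11 is below 0 on 4 of 4 arrays and MBD4 above 0 on 3 of 4.

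MBD11 had the lowest mean and the smallest p of the family. Plants with reduced MBD11 are known for altered growth and fertility, and its protein is not among those shown to need methylated CG sites. Its normalized log2 level was 11.51, 10.86, 10.51 and 10.48 in the vim1,2,3-labelled RNA on arrays 1 to 4, against 11.69, 12.49, 11.42 and 11.76 in Col. The levels overlapped, because array 1 of the vim1,2,3-labelled RNA was above array 3 of Col. The log2 ratios were -0.17, -1.64, -0.91 and -1.28, a mean of -1.0 ± 0.63 (SD, n = 4, adjusted p = 0.0542). The fitted change was 2.00-fold lower, with a 95% interval of -1.62 to -0.39, and it missed the threshold. Array 1 differed from the other 3, where the vim1,2,3-labelled RNA was lower by close to 2-fold or more. Without array 1 the gene was called lower (-1.28, adjusted p = 0.0497), and with arrays 1 and 2 alone it was not (-0.90, adjusted p = 0.47). It was also called lower with median centring (-1.26, adjusted p = 0.0174), with the authors' series matrix (-1.05, adjusted p = 0.047) and over genes well above background in both channels on all 4 arrays (-1.0, adjusted p = 0.0493). The other MBD11 probe gave 0.00, -0.76, -0.16 and -0.58, a mean of -0.37 ± 0.36 (adjusted p over probes = 0.199). Both probes thus had array 1 highest and array 2 lowest, but they differed in size. In these whole-seedling RNAs, fewer cells of a type that uses a gene and less RNA per cell cannot be told apart.

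The pattern of MBD11 over the 4 arrays was set against that of 20369 other genes by Euclidean distance of the log2 ratios. The nearest genes were AT4G31875, AT3G24190 and AT5G19970, at distances of 0.242, 0.248 and 0.306, and 27 genes lay within 0.5. Of the 3, AT5G19970 was called lower (-1.06, adjusted p = 0.0346), and AT4G31875 (-1.05, adjusted p = 0.0609) and AT3G24190 (-0.89, adjusted p = 0.0611) were not. They were picked for ratios like those of MBD11, so means near its own follow from the choice. The count within 0.5 was not made for other genes, and whether these genes share regulation was not tested.

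MBD5 and MBD6 encode readers of methylated CG that act together in gene silencing. MBD5 had normalized log2 levels of 10.63, 10.92, 10.58 and 10.61 in the vim1,2,3-labelled RNA, against 11.51, 11.30, 10.72 and 11.01 in Col. The log2 ratios were -0.89, -0.37, -0.14 and -0.40, a mean of -0.45 ± 0.32 (SD, n = 4, adjusted p = 0.128), and its 95% interval was -0.87 to -0.03. MBD5 was thus lower on 4 of 4 arrays, most on array 1, while the levels of the 4 and 4 RNAs overlapped. MBD6 had levels of 11.89, 11.55, 11.88 and 12.41 in the vim1,2,3-labelled RNA, against 12.28, 12.21, 12.10 and 12.60 in Col. Its log2 ratios were -0.40, -0.66, -0.22 and -0.19, a mean of -0.37 ± 0.22 (SD, n = 4, adjusted p = 0.152), with an interval of -0.74 to 0.00. MBD6 was also below 0 on 4 of 4 arrays, and here array 2 was the lowest. Neither gene was called under any alternative, with ranges of -0.72 to -0.30 for MBD5 and -0.55 to -0.27 for MBD6. With arrays 1 and 2 alone MBD5 was at -0.63 and MBD6 at -0.53.

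MBD7, the third of the readers of methylated CG, belongs to a complex that protects genes from silencing. Its normalized log2 level was 12.39, 12.05, 12.64 and 12.41 in the vim1,2,3-labelled RNA, against 11.85, 11.92, 12.27 and 12.45 in Col. The log2 ratios were 0.54, 0.14, 0.37 and -0.05, a mean of 0.25 ± 0.26 (SD, n = 4, adjusted p = 0.314), the interval was -0.14 to 0.64, and arrays 1 and 2 alone gave 0.34. The other MBD7 probe gave 0.61, 0.07, 0.53 and 0.12, a mean of 0.33 ± 0.28 (adjusted p over probes = 0.203). The 2 probes of MBD7 therefore ordered the arrays alike in that arrays 1 and 3 were the highest. The 3 genes for readers of methylated CG thus lay on both sides of 0, and none was called.

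**Figure D2:**
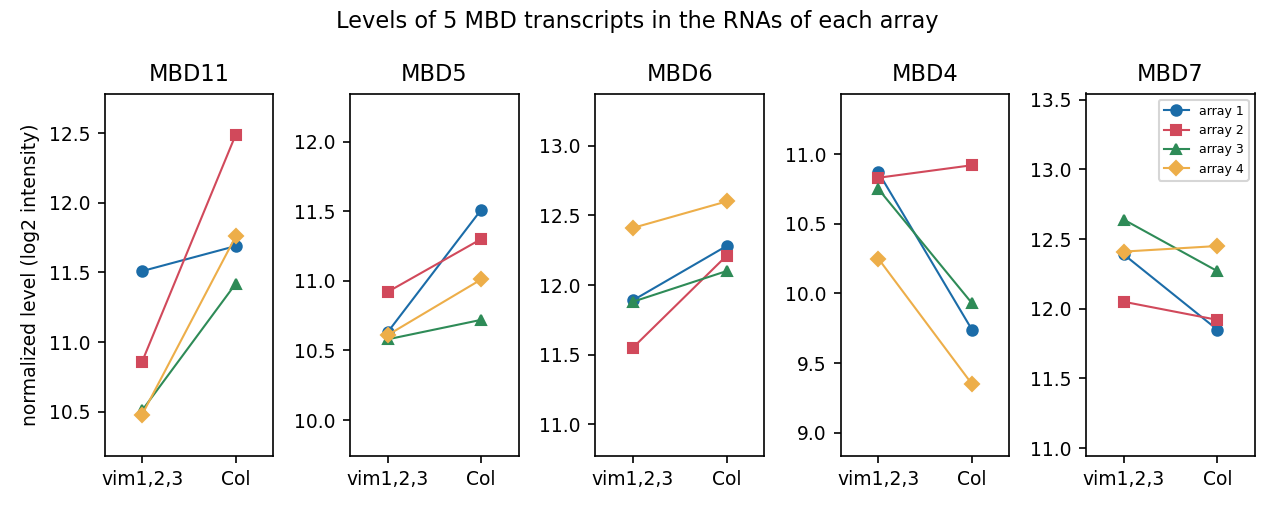
Normalized level (log2 intensity, vertical axis) of MBD11, MBD5, MBD6, MBD4 and MBD7 in vim1,2,3-labelled RNA (left of each panel) and Col (right), with a line joining the 2 RNAs of each array. Every panel spans the same range of log2 units; the lines of MBD11, MBD5 and MBD6 slope the same way on 4 of 4 arrays, and those of MBD4 on 3 of 4.

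MBD1, MBD2 and MBD4 encode proteins that pair an MBD domain with a zinc finger of the CW type. MBD4 had the highest mean of the family. Its normalized log2 level was 10.87, 10.83, 10.75 and 10.25 in the vim1,2,3-labelled RNA, against 9.74, 10.92, 9.93 and 9.35 in Col. The log2 ratios were 1.13, -0.09, 0.82 and 0.90, a mean of 0.69 ± 0.54 (SD, n = 4, adjusted p = 0.0947), and the 95% interval was 0.14 to 1.24. Array 2 stood apart from the other 3 arrays, where the vim1,2,3-labelled RNA was higher by 0.82 or more. The gene stayed under 2-fold in each alternative, although its adjusted p was 0.0296 without array 2 (0.95) and 0.0425 with array weights (0.79). With arrays 1 and 2 alone the mean was 0.52 (adjusted p = 0.596).

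MBD2 had log2 ratios of 0.54, -0.29, 0.07 and 0.19 at its brightest probe, a mean of 0.13 ± 0.34 (SD, n = 4, adjusted p = 0.643), which turned to -0.10 with median centring and was 0.13 over arrays 1 and 2 alone. The other MBD2 probe was above 0 on 4 of 4 arrays, at 0.39, 0.21, 0.63 and 0.59 (0.45 ± 0.19, adjusted p over probes = 0.089). Array 2 was the lowest for both MBD2 probes, as it was for MBD4. MBD1 had log2 ratios of -0.10, 0.62, -0.02 and -0.44, a mean of 0.02 ± 0.44 (adjusted p = 0.962), and its sign was not fixed across scalings, at -0.03 with the series matrix and -0.01 with the scanner's processed signals. Over arrays 1 and 2 alone MBD1 was at 0.26. MBD1 was thus highest on array 2, where MBD2 and MBD4 were lowest.

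MBD9 encodes a large chromatin protein that works with ISWI and SWR1 remodellers and the histone variant H2A.Z, and its loss brings early flowering. Its 4 probes disagreed. The brightest gave -0.33, 0.38, -0.08 and 0.75, a mean of 0.18 ± 0.48 (SD, n = 4, adjusted p = 0.584), which turned to -0.06 with median centring and was 0.03 over arrays 1 and 2 alone. A second probe was above 0 on 4 of 4 arrays, at 0.47, 0.95, 0.98 and 0.02 (0.60 ± 0.45, adjusted p over probes = 0.0961). The third lay near 0 on each array, at -0.07, -0.06, -0.10 and 0.05 (-0.04 ± 0.06, adjusted p over probes = 0.84). The dimmest MBD9 probe was not well above background in any vim1,2,3-labelled RNA, and was in Col on 3 of 4 arrays. It was tested only through Col, and its measured log2 ratios were 0.05, -1.74, 0.01 and -0.41, a mean of -0.52 ± 0.84 (adjusted p over probes = 0.292). Array 2 was the lowest, and without it the mean was -0.12, so no fold is given for this probe. Which parts of the transcript these probes read is not stated, and no direction is given for MBD9.

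**Figure D3:**
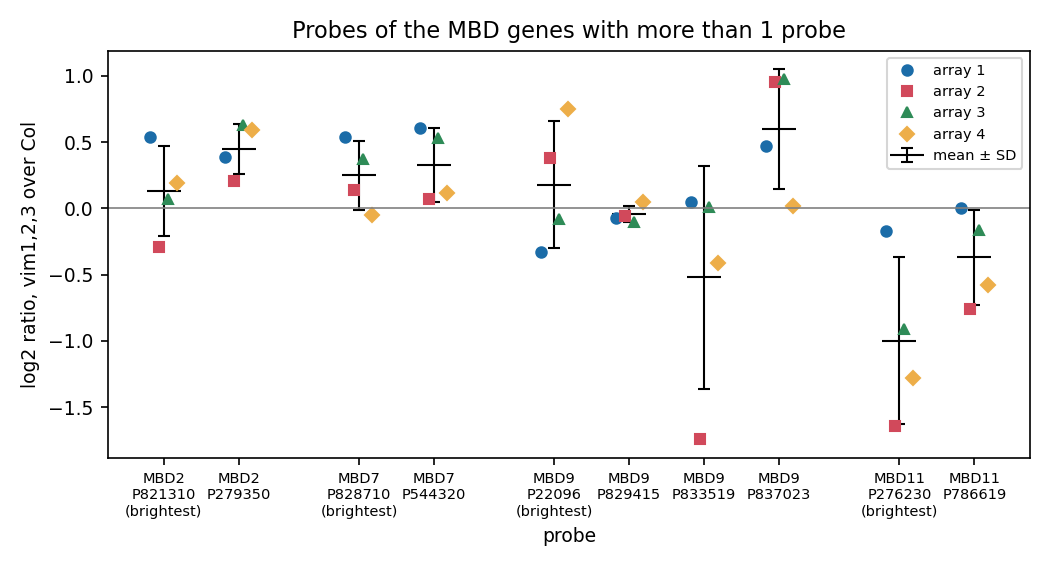
Log2 ratio of vim1,2,3-labelled RNA over Col (vertical axis) for each probe (horizontal axis) of the 4 MBD genes with more than 1 probe. Points are arrays and bars the mean ± SD. The probes of MBD9 average from -0.52 to 0.60, while both probes of MBD2, both of MBD7 and both of MBD11 keep 1 sign of the mean.

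MBD8, MBD10 and the remaining family loci were low in response or low in signal. MBD8, linked to flowering time in the strain C24, had log2 ratios of -0.16, -0.15, -0.73 and -0.12, a mean of -0.29 ± 0.29 (SD, n = 4, adjusted p = 0.272). Its probe was well above background on 2 of 4 arrays in the vim1,2,3-labelled RNA and on 4 of 4 in Col, so it passed the filter only through Col and its ratio is less certain than those of brighter members. Over arrays 1 and 2 alone MBD8 was at -0.16. It was at -0.73 with the scanner's processed signals (adjusted p = 0.0587) and at -0.63 with the series matrix (adjusted p = 0.219). The size of the MBD8 ratio thus depended on the processing. MBD10, which takes part with MBD6 in silencing ribosomal RNA genes, had log2 ratios of -0.49, 0.38, 0.19 and 0.07, a mean of 0.04 ± 0.37 (adjusted p = 0.905). The MBD10 mean turned to -0.12 with median centring, -0.06 over arrays 1 and 2 alone, -0.05 with the series matrix and -0.04 with the scanner's processed signals. Of 3 further loci of the family, MBD3 and MBD12 were too dim to be tested. MBD13 was measured at -0.32, -0.65, -0.42 and -0.16 (-0.39 ± 0.20, adjusted p = 0.132), -0.48 over arrays 1 and 2 alone, and its vim1,2,3-labelled RNA was well above background on 1 of 4 arrays. The other tested MBD13 probe gave -0.34, -0.91, -0.34 and -0.96 (-0.64 ± 0.34, adjusted p over probes = 0.0615), with 1 of 4 vim1,2,3-labelled RNAs and 3 of 4 Col RNAs well above background. Both MBD13 probes thus passed the filter only through Col. The second was not called in the main fit but was called lower with the scanner's processed signals (-1.40, adjusted p over probes = 0.0434). Its size therefore depended on the processing of dim signals, and no fall is read from it.

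Ordered by mean log2 ratio, the family ran MBD4, MBD7, MBD9, MBD2, MBD10, MBD1, MBD8, MBD6, MBD5, MBD11. Each gene differed from the next in this order by less than the SD of that difference over the 4 arrays. The widest step, from MBD5 to MBD11, was 0.55 ± 0.87, and the step from MBD4 to MBD7 was 0.44 ± 0.49. MBD5, MBD6, MBD8 and MBD11 were below 0 on 4 of 4 arrays, and none was above 0 on all 4, so 4 of 10 kept 1 sign, against 41.2% of all genes. None of the 16 MBD probes was called when each probe was tested on its own, against 6.44% of all 34316 probes tested. A two-sided exact sign-flip permutation test over 4 arrays cannot go below p = 0.125, so it could not pass the threshold for any gene. The levels in the 4 vim1,2,3-labelled RNAs and the 4 Col RNAs overlapped for all 10 MBD genes, and did not overlap for 14.6% of all genes.

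Genes whose products work with the MBD proteins were counted as a frame. Of 18 such genes in 3 lists, 18 were tested, 0 were called higher, 1 was called lower and 17 were not called, with a median log2 ratio of -0.23. Over all genes tested, 5.41% were called in either direction, 2.16% as lower, and the median was -0.05. The share of partners called in either direction is thus near that of all genes. The partner median was lower, with 15 of the 18 means below 0, against 11097 of all 20464 genes tested. The levels of the 4 and 4 RNAs did not overlap for 4 of the 18 (ROS1, ARP4, HTA9 and HTA11), against 14.6% of all genes, and the HTA9 probe was saturated. Of the 5 partners of MBD5 and MBD6, 0 were called, a count that shows nothing particular to them at the 5.41% of all genes. SLN, the J-domain protein that both recruit, was at -0.07 ± 0.29 (SD, n = 4, adjusted p = 0.796), and turned to 0.15 with arrays 1 and 2 alone. The α-crystallin domain proteins ACD15 and ACD21 were at -0.07 ± 0.34 and -0.13 ± 0.26, and ACD21 turned to 0.07 with arrays 1 and 2 alone. The chromatin remodeller gene DDM1 was at -0.36 ± 0.32 and the histone deacetylase gene HDA6 at 0.29 ± 0.24, above 0 on 4 of 4 arrays (adjusted p = 0.251). These HDA6 values are from its brightest probe, and the mean of its 2 tested probes gave 0.13 (adjusted p = 0.558). DDM1 was dim, with its vim1,2,3-labelled RNA well above background on 1 of 4 arrays. With the scanner's processed signals DDM1 was at -0.89 (adjusted p = 0.0389, short of 2-fold), so its size is uncertain.

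Of the 4 genes of the MBD7 complex and its demethylase, 1 was called lower, against 2.16% of all genes, and the median was -0.68. The 1 call is that of ROS1, and the count shows nothing about the list. ROS1, which excises methylated cytosine from DNA, fell 11.1-fold (-3.47 ± 0.22, SD, n = 4, adjusted p = 0.000119), below 0 on 4 of 4 arrays, and stood at -3.55 with arrays 1 and 2 alone (adjusted p = 0.0506). The ROS1 signal was well above background in 2 of the 4 vim1,2,3-labelled RNAs and in 4 of 4 of Col, so the gene passed the filter through Col alone and the size of its fall is uncertain. It was -4.33 with the scanner's processed signals and -3.0 over the mean of its probes. IDM1, a histone acetyltransferase, was at -0.50 ± 0.27 (adjusted p = 0.0881). IDM3, an α-crystallin domain protein, had log2 ratios of -0.31, -1.47, -0.53 and -1.07, a mean of -0.85 ± 0.52 (adjusted p = 0.0591), and was called lower with median centring (-1.05), the series matrix (-1.17) and the scanner's processed signals (-1.17). Its order of arrays was that of MBD11, with array 2 lowest and array 1 highest. IDM2, a relative of IDM3, was at 0.94, -0.55, -0.03 and -0.80 and had no stable sign (-0.11 ± 0.77, adjusted p = 0.825, and 0.20 with arrays 1 and 2 alone).

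Of the 9 genes for MBD9 partners and H2A.Z, 0 were called, against 5.41% of all genes, and the median was -0.26. At that share, 0 of 9 shows nothing particular to this list. The 3 H2A.Z genes differed. HTA11 had log2 ratios of 1.04, 0.54, 0.97 and 1.09 (0.91 ± 0.25, SD, n = 4, adjusted p = 0.0264) and HTA8 of 0.65, 0.55, 0.64 and 1.11 (0.74 ± 0.25, adjusted p = 0.0389), both above 0 on 4 of 4 arrays and short of 2-fold. HTA11 passed 2-fold without array 2 (1.04, adjusted p = 0.0235). HTA9 was at -0.54 ± 0.20 (adjusted p = 0.0655), with its probe saturated on 4 of 4 arrays in the vim1,2,3-labelled RNA and on 2 of 4 in Col, and at 0.15 over the mean of its probes, so no direction is given. At their brightest probes the remodeller subunits were all below 0 on 4 of 4 arrays and none was called. They were ARP4 (-0.55 ± 0.10, adjusted p = 0.0517), SWC6 (-0.56 ± 0.30), PIE1 (-0.30 ± 0.23), the ISWI ATPases CHR11 (-0.21 ± 0.15) and CHR17 (-0.26 ± 0.14), and ARP6 (-0.17 ± 0.10). Of all genes, 41.2% kept 1 sign on 4 arrays. Over the mean of their tested probes CHR11 was at -0.17 and CHR17 at -0.12.

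**Figure D4:**
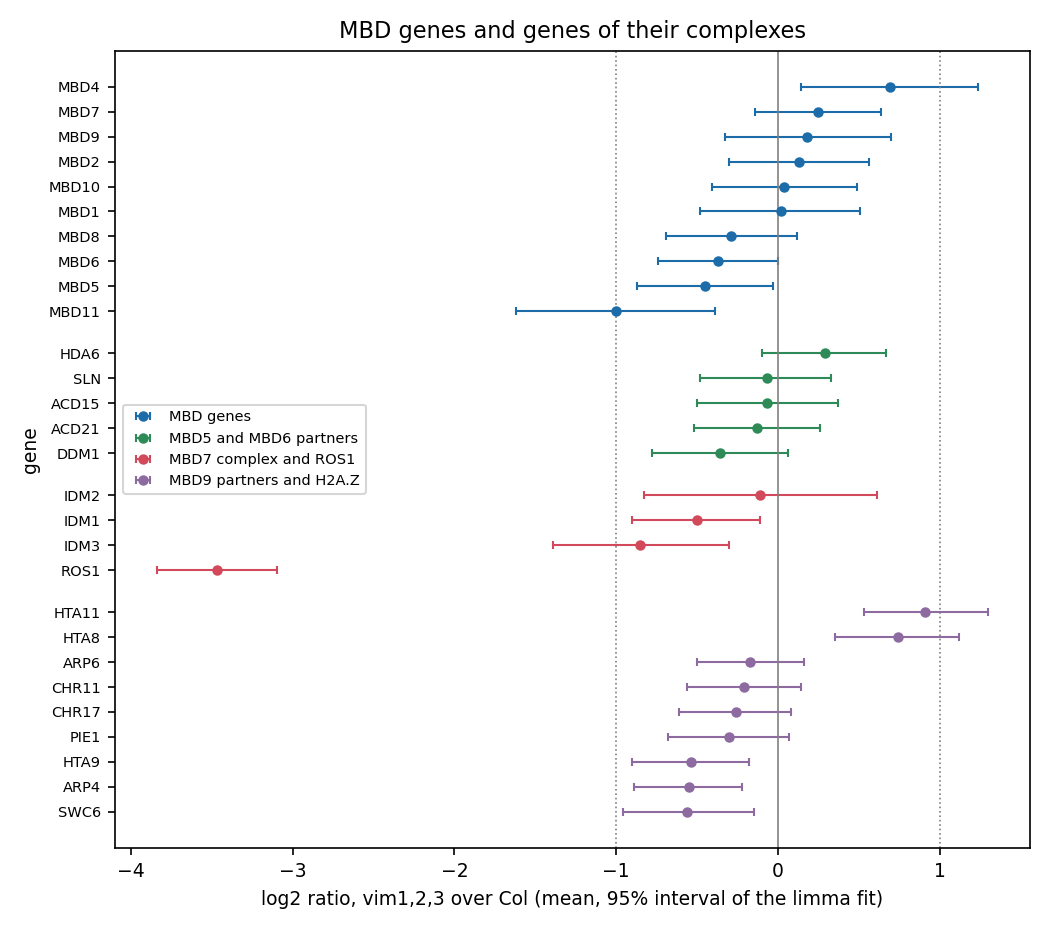
Mean log2 ratio of vim1,2,3-labelled RNA over Col (horizontal axis) with the 95% interval of the limma fit over 4 arrays, for the 10 MBD genes and the 18 partner genes in 3 lists (vertical axis). Dotted lines mark a 2-fold change; ROS1 lies beyond it with its whole interval, and MBD11 lies on the line.

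Among genes that share the CG methylation mark with the MBD proteins, MET1 was at -0.49 ± 0.35 (SD, n = 4, adjusted p = 0.117). FLC, the floral repressor that MBD9 affects, was at -0.17 ± 0.47 (adjusted p = 0.608) by its brightest probe. It was at -0.77 over the mean of its 3 tested probes (adjusted p = 0.0354, short of 2-fold), -0.59 with processed signals and 0.05 with arrays 1 and 2 alone. No size is therefore given for FLC, which was well above background in 2 of 4 vim1,2,3-labelled RNAs and 3 of 4 Col RNAs. In the gene order of the annotation, 11 of the 20 genes next to the MBD genes were tested and 0 were called, against 5.41% of all genes, a share at which 0 of 11 shows nothing particular to the neighbours. AT5G59790, beside MBD7, was at 0.70 ± 0.25 (adjusted p = 0.0424, short of 2-fold). An adjusted p under 0.05 at any fold was reached by 11.8% of all genes. The neighbours of MBD11, AT3G15780 and AT3G15800, were at -0.23 ± 0.36 and -0.43 ± 0.53 (adjusted p = 0.417 and 0.238).

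Marker lists for the makeup of the seedlings were read beside these values, where 5.41% of all genes tested were called. Of 3 green shoot markers, RBCS1A, LHCB1.3 and RCA, 0 were called. Their probes were saturated on 4 of 4 arrays in the vim1,2,3-labelled RNA and on 2 or 3 of 4 in Col. Their summed normalized level was 146000 to 156000 in the vim1,2,3-labelled RNAs and 166000 to 250000 in Col. Of 4 root markers 2 were tested and 0 called: SCR (-0.39 ± 0.58) and COBL9 (0.58 ± 0.40, above 0 on 4 of 4 arrays). EXPA7 and RHD6 were not tested. Of 4 seed markers 1, OLEO1, was tested and not called (0.42 ± 0.36), and CRA1, CRU3 and a 2S albumin were not tested. The OLEO1 level was 205 to 243 in the vim1,2,3-labelled RNAs and 138 to 192 in Col. It was well above background in 2 of 4 vim1,2,3-labelled RNAs and 3 of 4 Col RNAs. Of 3 floral genes, PI was called lower (-2.20 ± 0.69, SD, n = 4, adjusted p = 0.0111), while AG (-0.92 ± 0.48, adjusted p = 0.0444) and AP3 (-0.60 ± 1.43) were not. AP3 had log2 ratios of -1.12, -2.26, -0.14 and 1.1, and so was above 0 on array 4. Each of the 3 was well above background in 2 of 4 vim1,2,3-labelled RNAs and in 4 of 4 Col RNAs, so they passed the filter through Col alone. The summed normalized level of the 3 floral genes was 568 to 884 in the vim1,2,3-labelled RNAs and 1170 to 3220 in Col. PI weighed most in the Col sum, with a mean log2 level of 10.35, against 8.75 for AG and 8.34 for AP3. The part of floral tissue in the MBD values was not tested.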

How the data were processed

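Expression was measured on 4 Agilent 2-colour arrays without a dye swap, which leaves dye bias of single probes in the ratios. The scanner software was Agilent Feature Extraction, version 10.7.3.1, per the file headers. The deposited intensity of each spot and of its background is a pixel median, and the scanner's processed intensity had been background-subtracted and dye-normalized, per the file headers. A deposited log10 ratio of each spot comes from these processed values. The deposited series matrix holds log2 ratios with the direction and scale of the scanner's ratios (correlations across probes of 0.998 to 0.999, medians of -0.09, 0.01, -0.04 and -0.03), while how the authors normalized or centred it is not stated.

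From the medians, background was corrected by normexp (offset 50) and each array by loess, in which control spots had weight 0. The tools were limma 3.58.1, R 4.3.3 and the data.table package, version 1.17.8. Outlier spots were left out and the spots of a probe averaged. The planned test assumed no particular signal column, and medians were used because the files give no means. Of 43603 probes, 34185 matched a locus of the RefSeq gene list (TAIR10.1 assembly) through their accession. The array's header names an older build, so no coordinates are given. A gene was tested through its brightest probe, among probes well above background in the same channel on at least 3 of 4 arrays. Ratios were tested with lmFit and eBayes, adjusted by Benjamini-Hochberg over 20464 genes, or over 34316 probes where stated. A call needs a 2-fold change or more, and an adjusted p below 0.05. The test was tried on simulated ratios. Levels are channel intensities after loess and Aquantile.

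The array pairs its 2 RNAs and so acts as the replicate block. The series calls the arrays independent biological samples, and they shared a slide and scan, so no batch could be tested. The members, lists, named genes and alternatives were chosen with earlier results of these data known. All members and all genes of the lists were named, and the 3 genes nearest to the MBD gene with the smallest p.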

Additional observations from a re-analysis of the deposited data

Results flagged for a closer look

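Of 42 sets of 4 log2 ratios examined, 3 held 1 array far from the other 3 by Dixon's test at the 95% level, and chance flags about 1 in 20 such sets. MBD8 was at -0.73 on array 3, against -0.16 to -0.12 on the other arrays. The MBD8 signal was well above background in 2 of the 4 vim1,2,3-labelled RNAs. HDA6 was at 0.65 on array 2, against 0.13 to 0.22. HTA8 was at 1.11 on array 4, against 0.55 to 0.65.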

How the results depend on the processing

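The 10 MBD genes were refitted under 17 alternatives, 1 of them, arrays 1 and 2 alone, chosen after seeing the data. MBD8 was not tested in the fit of genes well above background in both channels. No MBD gene was called higher in any. The count of MBD genes called lower was 1, MBD11, with median centring (-1.26), the series matrix (-1.05), genes well above background in both channels on all 4 arrays (-1.0) and without array 1 (-1.28), so it ranged from 0 to 1 over the fits that left out 1 array. The count of MBD probes called was 1 in the same 4 fits and when probes saturated in both channels were left out. MBD11 ranged from -1.28 to -0.69 (adjusted p from 0.0174 to 0.47). Signs turned for members near 0: MBD1 to -0.04 with array weights, -0.01 with processed signals and -0.03 with the series matrix, MBD10 to -0.12, -0.04 and -0.05 with median centring, processed signals and series matrix, to -0.06 with arrays 1 and 2 alone, and MBD2 and MBD9 to -0.10 and -0.06 with median centring. With 1 array left out, MBD1 ran from -0.19 to 0.17, MBD10 from -0.08 to 0.21, MBD2 from -0.01 to 0.27 and MBD9 from -0.01 to 0.35. The cause of these turns was not tested.

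Partner genes called higher were 0 in all fits but the 1 without array 2, where 1 was called. Partner genes called lower were 2 with median centring, processed signals or the series matrix, and 0 with genes well above background in both channels, where ROS1 was not tested, and with arrays 1 and 2 alone. Signs turned for ACD15 with array weights (0.02), for ACD21 (0.07), FLC (0.05), IDM2 (0.20), SLN (0.15) and VIM2 (-1.36) with arrays 1 and 2 alone, for HTA9 with the mean of all probes (0.15), for VIM3 with array weights (0.18), and for VIM2 with median centring (-0.04), scaling between arrays (-0.05) and processed signals (-0.14). With 1 array left out, SLN ran from -0.20 to 0.01, ACD15 from -0.23 to 0.02, IDM2 from -0.46 to 0.12, VIM2 from -0.54 to 0.54, VIM3 from -0.70 to 0.27 and FLC from -0.32 to 0.05.

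Over all genes, 666 were called higher and 441 lower, so 60.2% of calls were higher, against 42.2% with median centring (640 and 878), 41.9% with processed signals (587 and 813) and 47.5% with the series matrix (608 and 673). The median of all genes was -0.05, and -0.17, -0.14 and -0.11 there. With 1 array left out the counts ran from 182 to 987 higher and from 33 to 597 lower. With arrays 1 and 2 alone they were 53 and 0. With no replicate block, as separate channels, 395 were higher and 152 lower, and MBD11 had an adjusted p of 0.106.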
